A study of Homo sapiens with 8 samples.

Results

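EHD3 and 7 relatives and partners of its protein were followed in HAP1 cells with and without BCDIN3D. The 8 genes are the paralogues EHD1, EHD2, EHD3 and EHD4, the adaptor genes MICALL1 and RAB11FIP2, and the small GTPase genes RAB11A and RAB8A. All 8 symbols were found among the 57996 of the RNA-seq tables, and all 8 passed the filter on low counts that left 16233 genes. The members were chosen by their RNA-seq counts in knockout against wild-type: EHD3 stood higher in the knockout, and its relatives and partners were taken with it for contrast. Their knockout against wild-type values are therefore given as a description with an error, and their calls only as a count beside the share of all genes.

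HAP1 is a near-haploid human line that goes back to a chronic myelogenous leukaemia. Wild-type HAP1 (2 RNA-seq and 2 small RNA libraries) was set against BCDIN3D knockout clone 11 (again 2 and 2). BCDIN3D encodes a methyltransferase of the 5′ end of histidine tRNA. All cells grew for 48 h in IMDM with 10% serum, and 1 RNA of integrity number 10 per culture served both assays. Each group has a library from the earlier and a library from the later of 2 dates in the labels (3 days apart), called replicates 1 and 2 here. The labels list the genotype under a tag for shRNA status, while its value names a knockout clone. A single clone stands for the knockout, so an effect of the lost gene and a difference between clones cannot be told apart. Whether the replicates were grown from separate thaws is not stated, and the p-values reflect only how far these libraries spread, which may be technical.

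EHD proteins are membrane-bound ATPases with a C-terminal EH domain that binds NPF motifs. They assemble on tubular endosomes and at the neck of membrane buds, and help to bring receptors from endosomes back to the cell surface. EHD1 and EHD3 are the closest pair and act at the tubular recycling endosome. EHD4 acts at early endosomes, and EHD2 sits at the neck of caveolae. MICAL-L1, the product of MICALL1, recruits EHD1 and RAB8A to recycling tubules, and RAB11-FIP2 links RAB11A to EHD proteins and to myosin Vb. EHD1 and EHD3 also take part in forming the ciliary vesicle, together with RAB11 and RAB8. EHD3 protein is known from brain, heart and the endothelium of kidney glomeruli.

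EHD3 (chromosome 2, 31234152 to 31269451, GRCh38.p14) starts back to back with CAPN14, a calpain protease gene on the opposite strand, and the RefSeq starts of the 2 genes leave 194 bases between them. That stretch is shown because it separates the annotated starts of both genes, with CpG dinucleotides in capitals. The bases before the start of EHD2 (chromosome 19, 47713422 to 47743134), the other member with a large difference, are shown for comparison. Both sequences are RefSeq reference sequence of GRCh38.p14, plus strand.
EHD3, chr2:31233958-31234151: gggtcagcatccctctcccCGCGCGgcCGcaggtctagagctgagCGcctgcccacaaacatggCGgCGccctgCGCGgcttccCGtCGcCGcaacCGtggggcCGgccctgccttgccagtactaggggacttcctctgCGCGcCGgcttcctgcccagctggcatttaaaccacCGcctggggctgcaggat
EHD2, chr19:47713172-47713421: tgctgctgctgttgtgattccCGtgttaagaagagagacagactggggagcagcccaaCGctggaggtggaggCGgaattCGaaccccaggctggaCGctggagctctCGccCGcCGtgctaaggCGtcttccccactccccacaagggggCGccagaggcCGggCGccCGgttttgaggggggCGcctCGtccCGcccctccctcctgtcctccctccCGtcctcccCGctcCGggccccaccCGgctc
The EHD3 stretch holds 18 CpG dinucleotides in 194 bases and the EHD2 stretch 20 in 250. In the full window of 300 bases (250 before the start and 50 after it), EHD3 had 27 CpG, EHD2 30 and EHD4 27, against a median of 14 over 35114 such windows of the RefSeq table. EHD1 has 2 listed starts, with 4 CpG at the upstream start and 33 at the other. MICALL1 had the most, 48, followed by RAB8A with 30, RAB11FIP2 with 25 and RAB11A with 23. Every member thus lay above that median, except at the upstream start of EHD1, and EHD3 was in the middle of the 8 genes.

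Of short promoter elements, 5 were searched on both strands of the same windows: the TATA box TATAAA, the CCAAT box CCAAT, the GC box GGGCGG, the E-box CACGTG and the cyclic AMP response element TGACGTCA. No searched motif contains another. The EHD3 window held 0 of the 5, and that of EHD2 held 1 GC box. EHD4 had 3 GC boxes and 2 CCAAT boxes, and the second start of EHD1 had 5 GC boxes, 2 CCAAT boxes and 1 TATA box. Of all windows 45% held a GC box, 34.6% a CCAAT box, 11.5% a TATA box, 7.26% the E-box and 1.85% the cyclic AMP response element.

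RNA-seq depth was 20065041 to 24415272 counts per library, and the biological coefficient of variation was 5.53%. The targeted gene BCDIN3D was lower in knockout (1.56 and 2.71 CPM) than in wild-type (7.40 and 4.90 CPM). CPM are counts scaled to a common library total after TMM, a correction for library composition. BCR and ABL1, the partners of the leukaemia fusion, were counted in all libraries (28.3 to 30.5 and 11.3 to 14.5 CPM), though counts per gene do not show a fusion. Of 8 blood cell markers only KIT passed the filter, and the sum of the list was 11.1 and 12.0 CPM in wild-type and 0.993 and 1.66 in knockout. KIT, a growth factor receptor gene, alone supplied 10.8 and 11.0 CPM of the wild-type sums and 0.804 and 1.41 CPM of the knockout sums (-3.30 ± 0.23 on the log2 scale). Each of the other 7 markers stood at 0.243 CPM or less in every library.

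**Figure D1:**
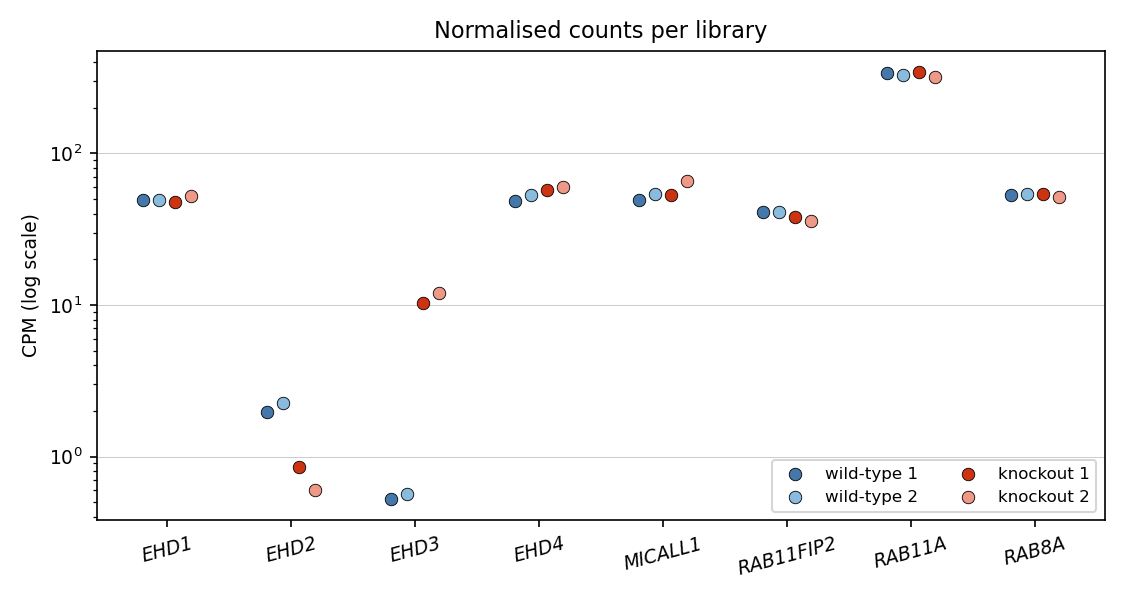
Normalised counts (CPM, log axis) of the 8 genes, 1 point per RNA-seq library, wild-type in blue and knockout in red. EHD3 lies near 0.5 CPM in wild-type, while knockout 1 and 2 reach 10.3 and 11.9 CPM, EHD2 is lower in both knockout libraries, and the other genes stay within narrow ranges. Heights of different genes are not comparable, since CPM are not scaled by transcript length.

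EHD3 was nearly silent in wild-type cells. The wild-type libraries held 11 and 14 of its reads and the knockout libraries 217 and 237, which is 0.529 and 0.567 against 10.3 and 11.9 CPM. The groups were far apart and replicates close together (0.548 ± 0.0271 against 11.1 ± 1.17 CPM, mean ± SD, n = 2 each). The fitted difference was 4.32 ± 0.25 on the log2 scale (SE, 95% interval 3.81 to 4.83), a fold of 20.0. Matched by date, the log2 ratios were 4.28 for the earlier pair and 4.39 for the later pair. In such bulk libraries more cells with EHD3 RNA and more of it per cell cannot be told apart, and the same holds, in reverse, for fewer cells and less RNA per cell.

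EHD1 (chromosome 11, 64851642 to 64879693), the nearest relative, showed no shift beyond the spread of its replicates. Its 4 libraries held 49.2 and 49.2 CPM in wild-type and 47.7 and 52.4 CPM in knockout, so the knockout libraries lay on either side of the wild-type ones. The log2 difference was 0.02 ± 0.08, with an interval from -0.14 to 0.19. EHD4 (chromosome 15, 41895933 to 41972557) stood at 48.6 and 53.5 CPM in wild-type and at 57.1 and 60.0 CPM in knockout. Its groups did not overlap, but the shift was small (0.20 ± 0.08, interval 0.03 to 0.36).

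EHD2 went the other way. Its reads numbered 41 and 56 in wild-type but 18 and 12 in knockout, or 1.97 and 2.27 against 0.851 and 0.603 CPM. Both knockout libraries were below both wild-type libraries, by a log2 difference of -1.53 ± 0.36 (interval -2.25 to -0.82), a level 2.90-fold lower. Counts this low left it the widest interval of the 8 genes. The date pairs gave -1.21 and -1.91.

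In reads assigned to the 4 EHD genes, the share of EHD3 was 0.527% (exact binomial 95% interval 0.263 to 0.941) and 0.538% (0.294 to 0.900) in the wild-type libraries. In the knockout libraries it was 8.85% (7.76 to 10.1) and 9.54% (8.41 to 10.8). These are shares of counts, not of molecules, since longer transcripts give more reads, and the intervals cover counting error only. EHD1 and EHD4 together thus still supplied most EHD reads in the knockout clone.

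**Figure D2:**
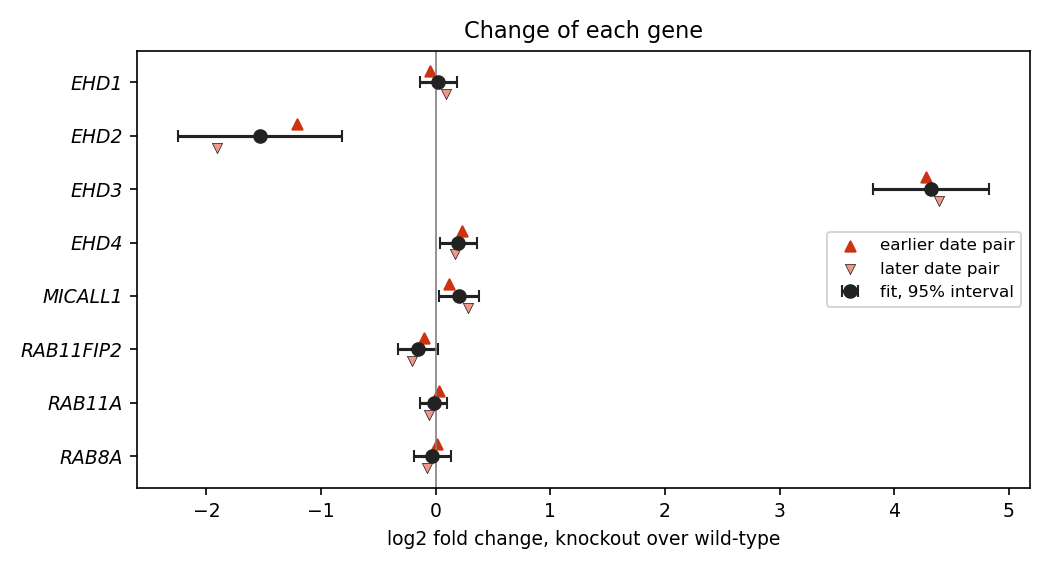
Log2 fold change of knockout over wild-type for the 8 genes (circles, with 95% intervals from the edgeR fit), with the ratios within the earlier and the later date pair as triangles. EHD3 stands at 4.32, EHD2 at -1.53, and the other 6 genes lie between -0.15 and 0.20.

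The adaptors that bind EHD proteins through NPF motifs showed small differences. MICALL1 (chromosome 22, 37906297 to 37942822) had 49.5 and 54.2 CPM in wild-type and 53.5 and 65.9 CPM in knockout. The groups overlapped, with a log2 difference of 0.20 ± 0.09. Matched by date, the log2 ratios were 0.11 for the earlier pair and 0.28 for the later pair. The difference was 0.05 without knockout replicate 2 and 0.35 without knockout replicate 1. Each of these fits sets 1 date of knockout against both dates of wild-type. MICALL1 was higher at the later date in both genotypes, so date and genotype are mixed in these fits. RAB11FIP2 (chromosome 10, 118004916 to 118046941) stood at 41.0 and 41.3 CPM in wild-type and at 38.1 and 35.8 CPM in knockout. Its groups did not overlap, with a log2 difference of -0.15 ± 0.09 (interval -0.33 to 0.02).

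The GTPase genes stayed within the spread of their replicates. RAB11A (chromosome 15, 65869491 to 65891989), which marks the recycling endosome, had 338 and 331 CPM in wild-type and 344 and 317 CPM in knockout. Counted most often of all, it had the narrowest interval of the 8 genes, -0.13 to 0.10 around -0.02. RAB8A (chromosome 19, 16111889 to 16134234), which acts in transport to the cell surface and the cilium, had 53.4 and 54.3 CPM in wild-type and 54.0 and 51.5 CPM in knockout. Its log2 difference was -0.03 ± 0.08 (interval -0.19 to 0.13), and the groups of both GTPases overlapped.

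The log2 difference of EHD3 exceeded those of the others by 4.12 ± 0.27 (MICALL1) to 5.85 ± 0.44 (EHD2), with 4.30 ± 0.27 for EHD1. These errors treat the 2 genes as independent. Over the 7 genes other than EHD3 the median log2 difference was -0.02, beside 0.00 over all genes tested. By edgeR's quasi-likelihood test with Benjamini-Hochberg adjustment over all 16233 genes, 2 of the 8 were called, EHD3 as higher and EHD2 as lower. Of all genes tested 6.56% were called, 3.06% as higher and 3.5% as lower. Of the 8 genes DESeq2 called EHD3 alone, since EHD2 missed its threshold (DESeq2 adjusted p = 0.0762). EHD2 also lost its edgeR call without knockout replicate 2, where its log2 difference was -1.31. Between groups 4 of the 8 did not overlap, against 45.3% of all genes tested. Since the choice of genes used this contrast, nothing is read from these counts.

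The 2 dates offer a comparison that the choice of genes did not use. With genotype in the model, 0 of the 8 genes were called between the later and the earlier date by edgeR, and 0 by DESeq2, while edgeR called 0.444% of all genes. At an unadjusted p under 0.05 there was 1, MICALL1, which was higher at the later date by 0.22 ± 0.07 on the log2 scale (adjusted p = 0.176). EHD3 differed between dates by 0.20 ± 0.19 (adjusted p = 0.733) and RAB11A by -0.07 ± 0.04 (adjusted p = 0.541).

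Genes beside EHD3 were examined by position. The 3 tested genes on each side were LBH, LCLAT1 and GALNT14 toward the chromosome end, and MEMO1, DPY30 and SPAST on the other side. Only GALNT14, a mucin-type glycosyltransferase gene 95.7 kb away (chromosome 2, 30886782 to 31138440), was called, and as lower. The wild-type libraries held 32 and 40 of its reads and each knockout library 5, or 1.54 and 1.62 against 0.236 and 0.251 CPM. The log2 fold change was -2.67 ± 0.47 (edgeR adjusted p = 5.3e-05), and the call held in all 9 alternatives, from DESeq2 to each left-out library. The nearest tested genes with a matched position on the 2 sides of EHD3 are 729 kb apart. The closer of them fell while EHD3 stood higher.

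The other neighbours did not pass the test. MEMO1, a regulator of cell motility, gave 0.23 ± 0.19 (adjusted p = 0.614), LCLAT1, a lysocardiolipin acyltransferase gene, -0.15 ± 0.08 (adjusted p = 0.343), and LBH, a transcriptional cofactor gene, 0.07 ± 0.07 (adjusted p = 0.716). DPY30, a subunit gene of histone methyltransferase complexes, gave -0.09 ± 0.09 and SPAST, which encodes the microtubule-severing protein spastin, -0.09 ± 0.08. Matching by current name found 6 further symbols between GALNT14 and MEMO1, so genes listed under older names may be missed. Of the 6, 3 were protein-coding, and each of the 6 had at most 10 counts over the 4 libraries. The most counted was CAPN14, the back-to-back partner of EHD3, with 0 and 3 reads in wild-type against 3 and 4 in knockout. CAPN14 did not pass the filter on low counts, so a difference in it was not tested. If reads of EHD3 and CAPN14 overlap near these starts, their assignment depends on the strand setting of the counting, which is not given in the sources used here.

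**Figure D3:**
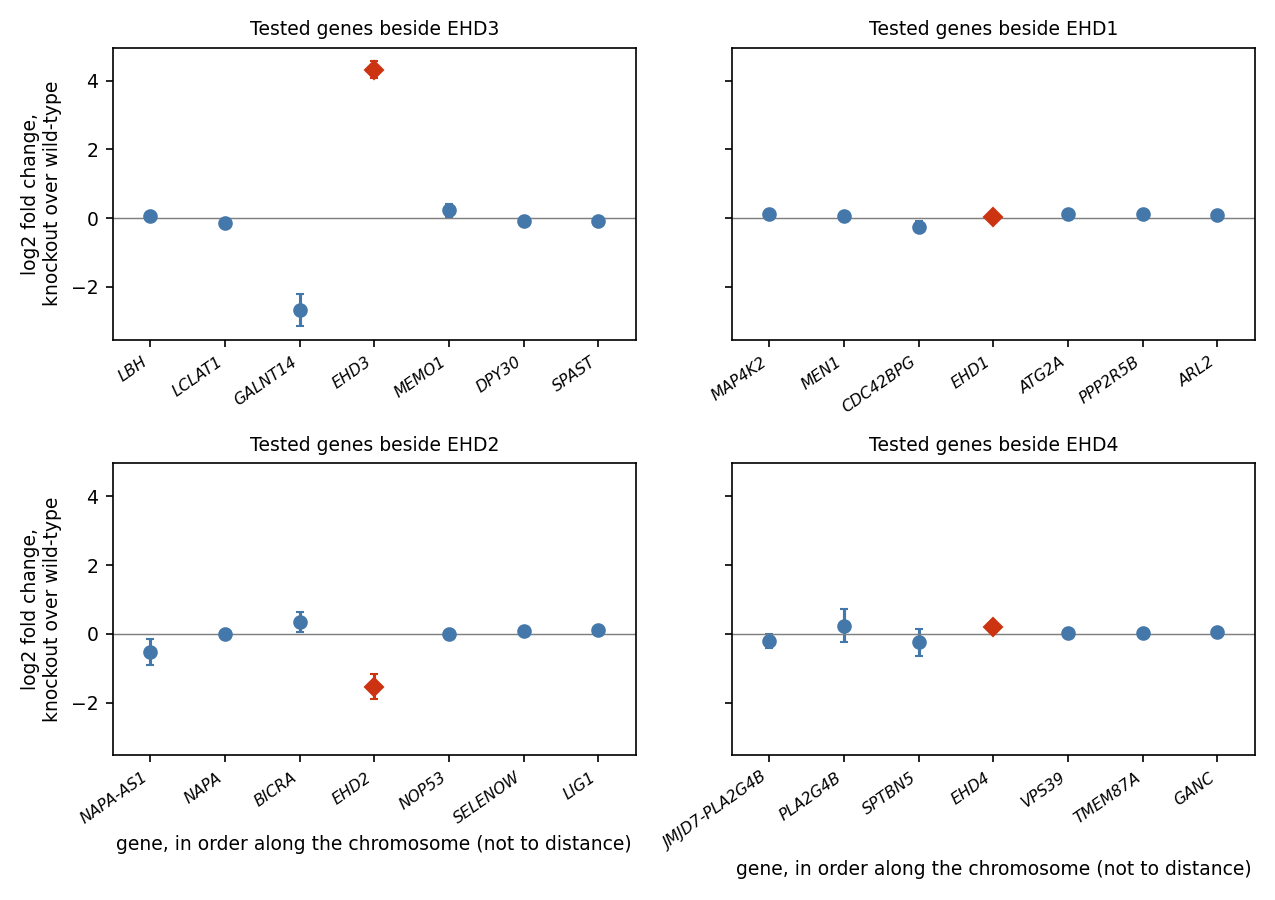
Log2 fold change of knockout over wild-type (± SE) for each EHD gene (red diamond) and 3 tested genes on each side (blue circles). These are the nearest with a matched position, in order along the chromosome and not to distance. EHD3 at 4.32 stands beside GALNT14 at -2.67, and the neighbours of EHD1, EHD2 and EHD4 lie between -0.53 and 0.34.

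Of 24 such neighbours of the 4 EHD genes, 0 were higher and 1 was lower by edgeR, beside the 6.56% of all genes tested. At an unadjusted p under 0.05 there was also 1, and DESeq2 called 1. Around EHD1 the 6 log2 fold changes ran from -0.25 to 0.14, around EHD4 from -0.25 to 0.23 and around EHD2 from -0.53 to 0.34.

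Small RNA libraries from the same RNA were searched for microRNAs whose hairpin lies within 100 kb of a member. There were 17 mature names, 10 of them near EHD1, 1 near EHD4 and 6 near MICALL1, and 0 hairpins lay that near to EHD3. Only 2 names had more than 3 counts in every library. They are printed with the seed (bases 2 to 8) in capitals, from RefSeq, GRCh38.p14, minus strand.
miR-194-5p, chr11:64891404-64891425: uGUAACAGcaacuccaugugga
miR-6749-5p, chr11:64902429-64902450: uCGGGCCUgggguugggggagc
The epithelial and liver microRNA miR-194-5p, 11.7 kb from EHD1, was read 78 and 114 times in wild-type against 115 and 180 times in knockout. As CPM of all microRNA counts this was 330 and 428 against 729 and 519, with libraries of 157706 to 346626 counts. The same mature sequence also comes from a second hairpin elsewhere, so these reads need not stem from the EHD1 locus. miR-6749-5p, 22.7 kb from EHD1, had 6 and 29 counts against 10 and 18, and its groups overlapped. The hairpin of miR-10392 lies within EHD1, and its 5p arm was read 1 and 13 times in wild-type against 9 and 30 times in knockout. As CPM this was 4.236 and 48.79 against 57.07 and 86.55. No test was made on counts this low.

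The rest of the endocytic and recycling machinery was described with 11 lists that contain none of the 8 genes. Of 160 listed genes 151 were tested, and 7 were higher and 2 lower, 5.96% in all beside the 6.56% of all genes tested. Their median log2 fold change was -0.01, against 0.00 over all genes. Blocking on the date gave 7 higher and 7 lower, and DESeq2 gave 4 higher and 0 lower. Leaving out wild-type replicate 1 left 3 higher, and leaving out wild-type replicate 2 left 2. Without knockout replicate 2 there was 1 lower.

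Among 12 binding partners of EHD proteins ANK2 rose and 0 fell (8.33%, beside the 6.56% of all genes tested). Their median log2 fold change was 0.04. ANK2 encodes ankyrin-B, a membrane adaptor that binds EHD3 in heart muscle. It had 77.1 and 79.5 CPM in wild-type and 99.6 and 106 CPM in knockout, without overlap. The log2 fold change was 0.39 ± 0.07 (edgeR adjusted p = 6.94e-05), and the call held in all 9 alternatives. MYOF, the gene for the EHD2 partner myoferlin, had 9.95 and 4.94 CPM in wild-type and 5.01 and 2.56 CPM in knockout. The later library of each genotype was about as much lower than the earlier one as knockout was than wild-type. Its log2 fold change of -0.95 ± 0.55 missed the threshold (adjusted p = 0.556), but not when the dates were blocked (blocked adjusted p = 0.000344).

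Around RAB11A, 0 of 10 tested relatives, effectors and motors were called by edgeR or DESeq2. By edgeR 6.56% of all genes tested were called. Of the 10, 2 had an unadjusted p under 0.05. Of these 2, RAB11FIP1 was higher in knockout (0.21 ± 0.09, adjusted p = 0.204). The smallest p was that of MYO5B, the myosin motor that RAB11-FIP2 recruits. It stood at 51.5 and 54.2 CPM in wild-type and at 43.8 and 44.9 CPM in knockout (-0.25 ± 0.08, adjusted p = 0.0508, blocked adjusted p = 0.0149). With RLE size factors (adjusted p = 0.0448) or library size alone (0.0279) edgeR called MYO5B as lower. Over all genes tested the median log2 fold change was 0.0017 with TMM, -0.0037 with RLE and -0.0251 with library size alone. The share of calls that were higher was 46.7%, 44.6% and 36.7% in that order. Around RAB8A, 1 of 10 rose and 0 fell (10%, beside the 6.56% of all genes tested). RAB8B, the close paralogue of RAB8A, had 102 and 99.3 CPM in wild-type and 125 and 123 CPM in knockout (0.29 ± 0.07, edgeR adjusted p = 0.00187). That call was lost without wild-type replicate 2 (adjusted p = 0.0930). RAB8A itself, as given above, had groups that overlapped.

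Of 18 early endosome GTPases and tethers 1 rose and 0 fell (5.56%, beside the 6.56% of all genes tested). RAB31, which acts between the trans-Golgi network and endosomes, had 59.9 and 58.1 CPM in wild-type and 75.2 and 71.2 CPM in knockout (0.31 ± 0.08, edgeR adjusted p = 0.00467). It lost its call without wild-type replicate 2 (adjusted p = 0.121). Of 17 genes of retromer, retriever and sorting nexins, which sort cargo out of endosomes, 2 rose and 0 fell (11.8%). CCDC22, a subunit gene of the retriever-associated CCC complex, gave 0.33 ± 0.09 (edgeR adjusted p = 0.0195), and SNX17, the cargo adaptor of retriever, gave 0.21 ± 0.07 (edgeR adjusted p = 0.0422). CCDC22 lost its call when any of the 4 libraries was left out (adjusted p from 0.0530 to 0.210), and SNX17 when any but knockout replicate 1 was (0.0686 to 0.623) and with library size alone (0.0978). DESeq2 called neither (adjusted p = 0.119 and 0.193).

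Exocyst subunits and SNAREs of endosomes and the plasma membrane gave no call in the main test, beside the 6.56% of all genes tested. Of 9 exocyst subunits 0 were called by edgeR or DESeq2 and 2 had an unadjusted p under 0.05. EXOC8 had the smallest p (-0.28 ± 0.09, adjusted p = 0.0595, blocked adjusted p = 0.0199), and edgeR called it as lower with library size alone (adjusted p = 0.0354). The other of the 2, EXOC3, was higher in knockout (0.20 ± 0.09, adjusted p = 0.234). Of 14 SNARE genes 0 were called by either tool, with 0 at an unadjusted p under 0.05. STX16, the syntaxin of the trans-Golgi network, came first with -0.22 ± 0.15 (adjusted p = 0.531).

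Uptake was described with the lists for clathrin and for caveolae. Of 22 genes of clathrin-mediated uptake 1 rose and 0 fell (4.55%, beside the 6.56% of all genes tested). It was AP2M1, the cargo-binding subunit gene of the AP-2 adaptor, with 337 and 325 CPM in wild-type and 360 and 391 CPM in knockout (0.18 ± 0.06, edgeR adjusted p = 0.0451). AP2M1 lost its call with DESeq2 (adjusted p = 0.161), with RLE size factors (0.0529), with library size alone (0.107) and without any library except knockout replicate 1 (0.235 to 0.447). Caveolae matter here because EHD2 stabilises them. Of 7 caveolar genes 4 were tested and 0 called by edgeR or DESeq2, with 2 at an unadjusted p under 0.05. The coat gene PTRF (now CAVIN1) came first, with 107 and 104 CPM in wild-type and 92.1 and 92.8 CPM in knockout (-0.19 ± 0.07, adjusted p = 0.0859, blocked adjusted p = 0.0238), and edgeR called it as lower with library size alone (adjusted p = 0.0382). The other of the 2, CAV2, was higher in knockout, with 11.9 and 10.2 CPM in wild-type and 15.7 and 12.2 CPM in knockout. Its log2 fold change was 0.34 ± 0.14 (edgeR adjusted p = 0.170). The median log2 fold change of the 4 tested genes was 0.07.

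Of 22 genes of cilium assembly 1 rose and 0 fell (4.55%, beside the 6.56% of all genes tested). TRAPPC9, which encodes a subunit of the TRAPPII complex that brings the RAB8 activator to the centrosome, had 17.0 and 19.7 CPM in wild-type and 24.5 and 25.8 CPM in knockout (0.45 ± 0.11, edgeR adjusted p = 0.00372). It lost its call without wild-type replicate 1 (adjusted p = 0.184).

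Among 13 tested cargo receptors 0 rose and 2 fell (15.4%, beside the 6.56% of all genes tested). FCGRT, which encodes the recycling receptor for IgG and albumin, was read 37 and 50 times in wild-type against 10 and 13 times in knockout (-1.75 ± 0.38, edgeR adjusted p = 0.00122). IGF1R, the insulin-like growth factor receptor gene, had 46.9 and 49.0 CPM in wild-type and 40.6 and 35.9 CPM in knockout (-0.33 ± 0.09, edgeR adjusted p = 0.0104). With DESeq2 both calls were lost (adjusted p = 0.0519 for FCGRT and 0.0637 for IGF1R). IGF1R also lost its call without wild-type replicate 2 (adjusted p = 0.182) or knockout replicate 2 (0.218).

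**Figure D4:**
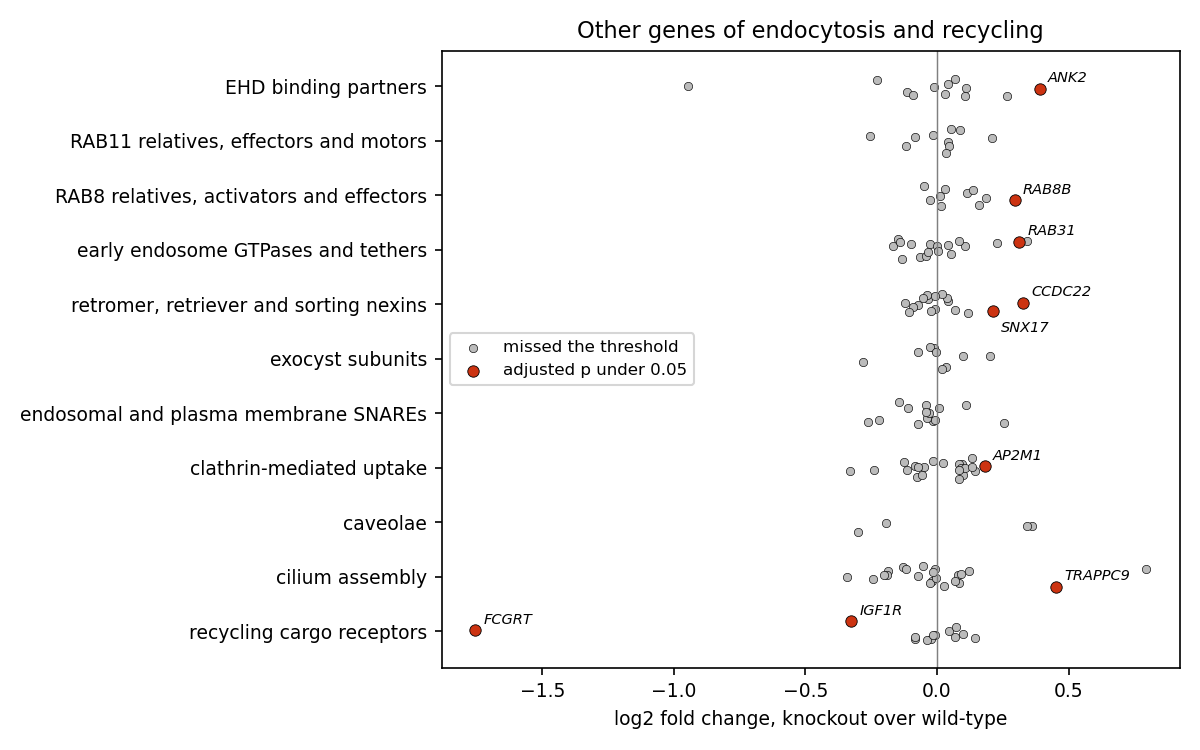
Log2 fold change of knockout over wild-type for the tested genes of the 11 endocytic lists, 1 point per gene, spread vertically at random within a list. Red points, with names, passed the edgeR threshold: 7 to the right of 0 and 2 to the left, FCGRT farthest at -1.75.

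Markers of cell types in which EHD3 is known were read beside it. Of 8 endothelial markers 0 passed the filter. Their sum was 0.721 and 0.486 CPM in wild-type and 0.331 and 0.251 CPM in knockout, with PECAM1 at 0 counts in every library. Of 8 neuronal markers 3 were tested, 0 higher and 2 lower, TUBB3 and SYT1. Over all genes tested 6.56% were called, 3.5% as lower. DESeq2 left 1 lower, since SYT1 missed its threshold (DESeq2 adjusted p = 0.0670), and 0 were lower without wild-type replicate 2. The 8 summed to 195 and 212 CPM in wild-type and 168 and 166 CPM in knockout. TUBB3, a tubulin gene, alone supplied 191 and 206 CPM of the wild-type sums and 166 and 163 CPM of the knockout sums. The endothelial markers were thus at or near 0 in all libraries, and the neuronal sum was that of TUBB3 with little else.

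The genes whose pattern over the 4 RNA-seq libraries lay nearest to that of EHD3 were found by Euclidean distance of log2(CPM + 0.5), each gene centred on its mean. The nearest was FAM19A5 (now TAFA5, chromosome 22), which encodes a secreted brain protein, at a distance of 0.38. It had 2.64 and 2.63 CPM in wild-type and 26.3 and 26.9 CPM in knockout. FAM127C (now RTL8B) followed at 0.62 and WBP5 (now TCEAL9) at 0.80, both on chromosome X. EPHA10, an ephrin receptor gene on chromosome 1, came at 1.23. TWIST2, a mesenchymal transcription factor gene, came at 1.35. It also lies on chromosome 2, but near the other end, at 238848085 to 238910534. With 2 groups of 2 libraries, likeness of this kind is little more than a large difference of the same sign.

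**Figure D5:**
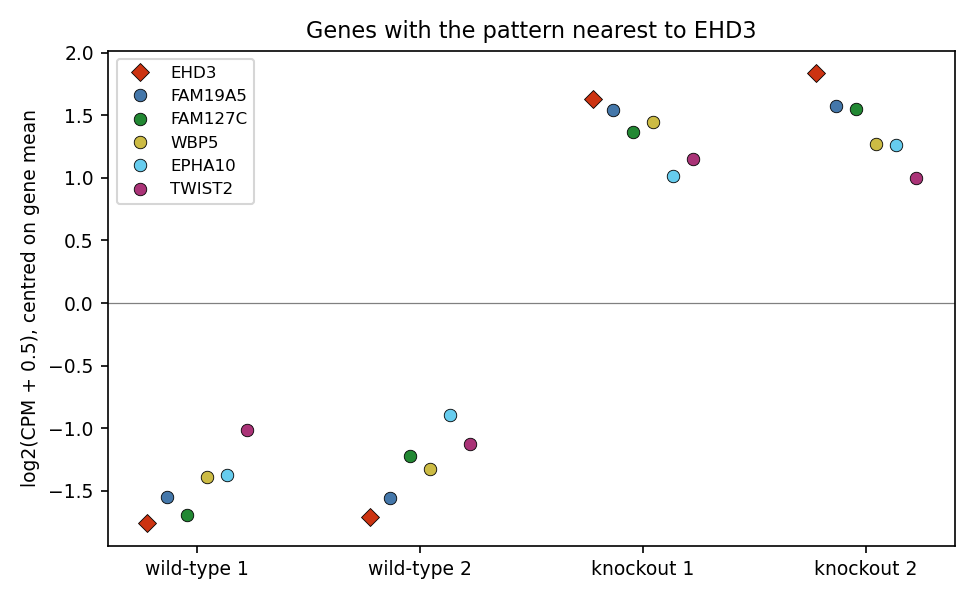
Centred log2(CPM + 0.5) of EHD3 (diamonds) and of the 5 genes nearest to it (circles) in each RNA-seq library. All 6 genes lie below 0 in both wild-type libraries and above 0 in both knockout libraries, with EHD3 the most extreme in each library.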

How the data were processed

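The authors deposited raw read counts, 1 file per library, for 57996 gene symbols (RNA-seq) or 2656 microRNA names. Per the submitters' processing notes, STAR, featureCounts, Subread, SAMtools, cutadapt, FastQC and the build hg38 were used; roles, versions, annotation and strand setting are not stated there. Per the labels' protocols, libraries were stranded total RNA and small RNA.

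The main test was edgeR 4.0.16 in R 4.3.3: filterByExpr (minimum count 10), TMM, robust quasi-likelihood F test, Benjamini-Hochberg over 16233 genes, threshold 0.05. The SE is the log2 fold change divided by the square root of F. The code was tested on simulated counts. The replicates differed by more than sampling noise (chi-square per degree of freedom 3.62 and 4.37). Dates in the labels pair the samples. Same-date deviations had a correlation of 0.17 across genes. The alternatives were a block on the date, DESeq2 1.42.0, RLE or library-size scaling, no filter, and each library left out.

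Positions and sequences came from RefSeq tables of GRCh38.p14, in which 14201 tested genes (87.5%) were matched. Transcript lengths and protein sequences were not used here, so levels of different genes are not compared. Members and lists were chosen with earlier results of these data known. Beyond the members, named were BCDIN3D, up to 2 called genes each way per list (or the 1 of smallest p), 3 tested neighbours on each side of EHD3, called neighbours of its paralogues and the 5 genes most like EHD3. CAPN14, MYOF, CAV2, RAB11FIP1, EXOC3 and the microRNAs were named after their values were seen, as were the single markers.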

Additional observations from a re-analysis of the deposited data

How the results depend on the processing

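The log2 difference of EHD3 lay between 4.21 and 4.43 in all 9 alternatives, and that of EHD2 between -1.81 and -1.31. Without knockout replicate 2 the log2 difference changed sign for EHD1 (-0.044), RAB11A (0.041) and RAB8A (0.0042). That of EHD1 also changed sign with library size alone (-0.0028). Over all genes, 497 were higher and 568 lower in knockout. DESeq2 gave 255 and 331, and the replicate block on the date gave 767 higher and 784 lower. Leaving out 1 library, where the lone library of a group is assumed to vary like the other group, gave 240 to 684 higher and 340 to 705 lower. Of the endocytic lists, 7 higher and 2 lower became 4 and 0 with DESeq2, 7 and 7 with the replicate block, and 6 lower with library size alone. Leaving out 1 library gave 2 to 7 higher and 1 to 3 lower. Between dates, 43 genes were higher and 29 lower at the later date, against 81 and 61 with RLE size factors, 83 and 51 with library size alone, 86 and 65 without the filter, and 2 and 9 with DESeq2. The cause of these differences was not tested. With 1 library left out, LBH ranged from -0.011 to 0.14 and STX16 from -0.52 to 0.023 on the log2 scale, changing sign without knockout replicate 2, and neither was called. The replicate block changed the call of no neighbour. Levels per transcript length, and the alternative with coding length, were not run because the tables used here give no transcript lengths. Depth limits EHD2 and wild-type EHD3 most, with 11 to 56 counts per wild-type library, and the microRNAs near the members.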
